A study of Mus musculus with 4 samples.

Results

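The genes described here are 33 genes of central carbon metabolism, 15 of glycolysis and 18 of pyruvate entry and the tricarboxylic acid (TCA) cycle, out of the 31053 genes of the count matrices. They were chosen by symbol as a named module, not by their measured values. All 33 were found, and each had at least 1 UMI in every cell class described (a UMI, or unique molecular identifier, tags 1 captured RNA molecule). The pyruvate entry group held 4 genes and the TCA cycle group 14.

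Live CD45.2+ immune cells were sorted from mouse lung and profiled by droplet single-cell RNA sequencing from the 3′ end of transcripts. There were 4 libraries, 1 for each combination of genotype and treatment, and the number of mice behind a library was not given in the sources used here. WT mice were Ift20 f/f and KO mice were Ift20 f/f CD4 cre, both of C57BL/6 background, so the controls carried the floxed allele as well. DPBS (buffered saline) was the sham treatment, and papain, a protease allergen, was given into the nose at 25 µg on consecutive days, again on day 14, with harvest on day 15. Where 4 values of a gene are listed, they stand in the order DPBS WT, then DPBS KO, then Papain WT, then Papain KO. The Cre is driven by Cd4 regulatory sequence, which is active in thymocytes that give rise to both CD4+ and CD8+ T cells. With 1 library per group no difference between groups had a replicate check, and no p-value was computed. All intervals given are 95% intervals that cover counting error only.

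Glycolysis splits glucose into pyruvate in the cytosol, and lactate dehydrogenase turns pyruvate into lactate when glycolysis runs ahead of the mitochondria. Pyruvate otherwise enters mitochondria through a carrier, is made into acetyl-CoA by the pyruvate dehydrogenase complex, and is oxidized in the TCA cycle. Neutrophils are known for few mitochondria and a reliance on glycolysis, alveolar macrophages for oxidative metabolism in an airspace poor in glucose, and T cells for a switch towards glycolysis when they are activated and divide.

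The libraries held 5863 to 8552 barcodes and 53854420 to 75675956 UMIs, and 5430 to 7573 cells per library passed quality control, with medians of 5817 to 6680 UMIs per cell. Pairs of libraries shared 7 to 16 barcodes. Cells were clustered with the 33 genes kept out of the variable genes, and 9 classes were named from marker genes. These were CD4 T-like cells (773 to 1187 per library), CD8 T-like cells (662 to 1109), NK-like cells (60 to 157), ILC2-like cells (50 to 80), B-like cells (1475 to 2279), monocyte-like cells (554 to 887), alveolar macrophage-like cells (539 to 1424), interstitial macrophage-like cells (53 to 200) and neutrophil-like cells (151 to 418). A small B-like cluster and a mixed T cell cluster were led by the interferon-stimulated genes Ifit3 and Ifit1. UMIs were summed over the cells of a class in a library and divided by all UMIs of that class, giving counts per 1000000 UMIs (CPM). Ift20, the targeted gene, was at 56.2, 21.2, 54.3 and 19.0 CPM in CD4 T-like cells, and at 51.7, 16.1, 51.0 and 15.9 CPM in CD8 T-like cells. Both KO libraries were thus below both WT libraries in the T cell classes, and in B-like cells Ift20 was at 34.5 to 43.9 CPM. The 3′ reads need not cover the exons removed by Cre, so these values measure transcript level and not the deletion itself.

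All 33 genes were protein coding in the GENCODE M21 annotation of mm10 and lay on 15 chromosomes. Promoters of 4 genes whose levels set the myeloid and lymphoid classes apart, or are textbook targets of the hypoxia factor HIF, are shown to place them in the genome. Each is the 250 bases before a start site in RefSeq GRCm38.p6, 5′ to 3′ on the strand of the gene. Capitals mark ACGTG or its reverse complement CACGT, the core letters of the hypoxia response element, which overlap where the palindrome CACGTG occurs. Ldha has another promoter in the same source (chr7:46846832-46847081), which held no match and is not shown. Slc2a1 (chr4:119108495-119108744, + strand) encodes the glucose transporter GLUT1, Hk2 (chr6:82774455-82774704, - strand) hexokinase 2, Ldha (chr7:46845554-46845803, + strand) lactate dehydrogenase A and Slc16a3 (chr11:120948817-120949066, + strand) the lactate exporter MCT4.
Slc2a1: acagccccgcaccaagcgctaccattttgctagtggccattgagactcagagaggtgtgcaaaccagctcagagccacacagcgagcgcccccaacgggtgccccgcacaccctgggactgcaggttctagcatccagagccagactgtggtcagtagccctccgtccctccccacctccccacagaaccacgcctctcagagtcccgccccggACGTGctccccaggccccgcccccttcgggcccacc
Hk2: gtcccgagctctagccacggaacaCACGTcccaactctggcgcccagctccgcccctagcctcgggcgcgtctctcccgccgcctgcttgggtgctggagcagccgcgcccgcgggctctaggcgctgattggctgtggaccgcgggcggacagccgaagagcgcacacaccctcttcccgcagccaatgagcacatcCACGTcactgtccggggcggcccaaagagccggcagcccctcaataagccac
Ldha: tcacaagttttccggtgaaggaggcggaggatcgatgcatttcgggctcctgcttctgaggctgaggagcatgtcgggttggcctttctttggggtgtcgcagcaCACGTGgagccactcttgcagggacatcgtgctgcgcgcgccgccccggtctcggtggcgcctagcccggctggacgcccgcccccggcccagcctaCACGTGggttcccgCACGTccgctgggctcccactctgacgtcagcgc
Slc16a3: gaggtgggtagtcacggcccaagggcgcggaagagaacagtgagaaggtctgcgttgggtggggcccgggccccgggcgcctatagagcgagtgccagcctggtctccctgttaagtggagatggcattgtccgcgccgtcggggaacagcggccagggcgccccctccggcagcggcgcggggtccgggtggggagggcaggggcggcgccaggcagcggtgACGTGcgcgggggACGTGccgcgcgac
Of the 33 genes, 31 had a promoter entry, and the 5 letters were found on either strand in 12 of them, 8 of 15 glycolysis genes and 4 of 16 pyruvate and TCA genes. Of all 27025 genes with an entry, 18.5% held the letters. Counted by promoter, 18 of the 44 promoters of these genes (40.9%) held them, 6 of which were start sites of Ogdh, against 16.6% of 32851 promoters in the table. The median GC content was 62.2% in the former and 52.4% in the latter, and 21.7% of promoters with at least 55.6% GC, the lower quartile of these genes, held the letters. Such a match is a description of the sequence, not a measured binding site.

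Across the lineages, alveolar macrophage-like, neutrophil-like and monocyte-like cells had a larger share of their UMIs in glycolysis genes than any lymphoid class. The mitochondrial steps split the myeloid classes. The 15 glycolysis genes summed to 4377 to 4960 CPM in alveolar macrophage-like cells, 4555 to 4922 CPM in neutrophil-like cells and 4249 to 4593 CPM in monocyte-like cells over the 4 libraries. The same sum was 1824 to 1893 CPM in B-like cells, 2293 to 2424 CPM in CD8 T-like cells and 2390 to 3073 CPM in CD4 T-like cells. B-like cells were therefore below every other class in every library, and the 3 leading myeloid classes overlapped one another. NK-like cells (2773 to 3509 CPM), ILC2-like cells (3099 to 3560 CPM) and interstitial macrophage-like cells (3212 to 3975 CPM) lay between. In neutrophil-like cells the transporter gene Slc16a3 alone gave 824 to 1277 CPM of the sum. These sums are shares and not amounts per cell. Neutrophil-like cells had medians of 3350 to 3710 UMIs per cell, against 6660 to 8280 in CD8 T-like cells. The 18 pyruvate and TCA genes summed to 2104 to 2233 CPM in alveolar macrophage-like cells, above every library of monocyte-like cells (1557 to 1696 CPM), interstitial macrophage-like cells (1444 to 1849 CPM), NK-like cells (1491 to 1693 CPM) and CD4 T-like cells (1228 to 1438 CPM).

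**Figure D1:**
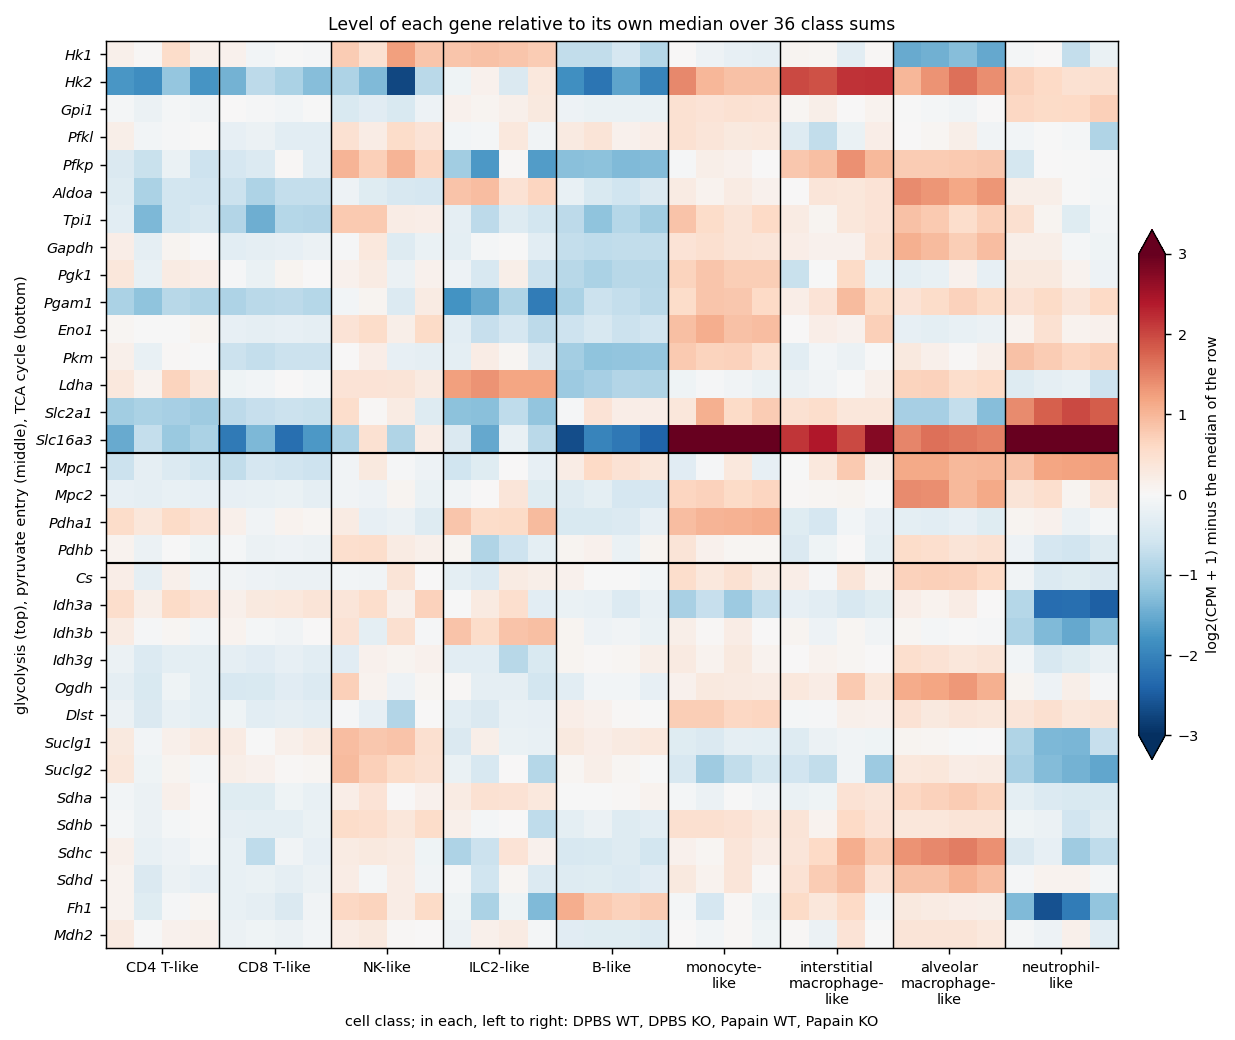
Heat map of the 33 genes (rows, in pathway order) in 9 cell classes and 4 libraries (columns), as log2(CPM + 1) minus the median of the row. Slc16a3 and Slc2a1 are high in neutrophil-like cells, Hk1 is low and the TCA genes are high in alveolar macrophage-like cells, and B-like cells are low over most of glycolysis.

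Slc16a3 and Slc2a1, the transporters of the glycolysis group, were both highest in neutrophil-like cells. Slc16a3 was at 824, 1137, 1277 and 1184 CPM in neutrophil-like cells, at 217, 356, 256 and 309 CPM in monocyte-like cells, at 51.2 to 87.4 CPM in interstitial macrophage-like cells and at 35.4 to 40.3 CPM in alveolar macrophage-like cells. No library of one of these 4 classes overlapped another class. In the lymphoid classes it was at 1.08 to 17.0 CPM, and its class medians spanned 670.1-fold between neutrophil-like and B-like cells, the widest range of the 33 genes. The highest lymphoid value, 17.0 CPM, was that of DPBS KO NK-like cells, where the 8 neutrophil markers summed to 429.5 CPM against 13.1 to 42.3 CPM in the other NK-like libraries. The part of RNA from other cells in these low values was not tested. Slc2a1 was at 95.6, 126, 142 and 127 CPM in neutrophil-like cells, above every library of every other class. It was at 45.2 to 74.8 CPM in monocyte-like cells, 34.5 to 47.1 CPM in B-like cells and 16.4 to 17.7 CPM in CD4 T-like cells, and the ranges of CD4 T-like, alveolar macrophage-like (14.0 to 21.0 CPM) and ILC2-like cells (14.2 to 20.6 CPM) overlapped. B-like cells thus had the lowest glycolysis sum with more Slc2a1 than CD4 T-like cells in every library.

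The 2 hexokinase genes of the list, which trap glucose as glucose-6-phosphate, differed most in alveolar macrophage-like cells, with the lowest Hk1 median and the second highest Hk2 median. Hk1 was highest in ILC2-like (39.0 to 42.7 CPM) and NK-like cells (31.6 to 54.4 CPM), which overlapped, and was at 7.08 to 8.77 CPM in alveolar macrophage-like cells, below every library of every other class. Hk2 was at 99.6 to 121 CPM in interstitial macrophage-like cells, above all other classes, and at 52.6 to 83.1 CPM in alveolar macrophage-like cells. CD4 T-like, CD8 T-like, NK-like and B-like cells held 3.02 to 14.4 CPM of Hk2. B-like cells were low for both, at 12.1 to 15.6 CPM of Hk1 and 4.86 to 7.87 CPM of Hk2. Hk3, another hexokinase outside the 33, had a median of 67.6 CPM in neutrophil-like cells and 17.5 to 21.8 CPM in the other myeloid classes.

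In the middle of the pathway the differences were smaller. Gpi1, which isomerizes glucose-6-phosphate, was at 458 to 504 CPM in neutrophil-like cells and 403 to 418 CPM in monocyte-like cells, with no overlap, and at 222 to 377 CPM in the other classes. Of the phosphofructokinases, which commit sugar to glycolysis, Pfkl spanned 1.68-fold and Pfkp 4.93-fold. Pfkp was highest in interstitial macrophage-like (150 to 223 CPM), NK-like (134 to 173 CPM) and alveolar macrophage-like cells (144 to 149 CPM), which overlapped. It was at 33.5 to 35.8 CPM in B-like cells. Aldoa, the aldolase that splits fructose bisphosphate, was at 904, 843, 759 and 842 CPM in alveolar macrophage-like cells, above ILC2-like cells at 457 to 640 CPM, and was at 177 to 215 CPM in CD8 T-like cells.

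The lower steps of glycolysis were lowest in B-like cells for most genes. Gapdh, the glyceraldehyde-3-phosphate dehydrogenase, was at 511 to 525 CPM in B-like cells, below every other class, and at 1442 to 1815 CPM in alveolar macrophage-like cells. Pkm, the pyruvate kinase, was at 168 to 189 CPM in B-like cells, again below every other class, and at 603 to 710 CPM in neutrophil-like cells. Pgk1 (222 to 247 CPM) and Eno1 (352 to 410 CPM), the phosphoglycerate kinase and enolase, were highest in monocyte-like cells, with no overlap with another class. Pgam1, the phosphoglycerate mutase, was at 194 to 235 CPM in monocyte-like cells and 30.3 to 70.5 CPM in ILC2-like cells. Tpi1, the triosephosphate isomerase, was at 42.1 to 56.9 CPM in B-like and 35.0 to 53.6 CPM in CD8 T-like cells, which overlapped, and at 144 to 182 CPM in alveolar macrophage-like cells. Ldha was at 791, 850, 769 and 762 CPM in ILC2-like cells, above every library of every other class, and at 157 to 181 CPM in B-like cells, below every other class. The next classes for Ldha were alveolar macrophage-like (485 to 544 CPM), NK-like (403 to 449 CPM) and CD4 T-like cells (358 to 536 CPM). Gapdh, Ldha, Pgk1, Eno1, Aldoa, Tpi1, Pkm and Pgam1 have near-identical copies in the mouse genome, so their UMIs carry an uncertainty of assignment.

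**Figure D2:**
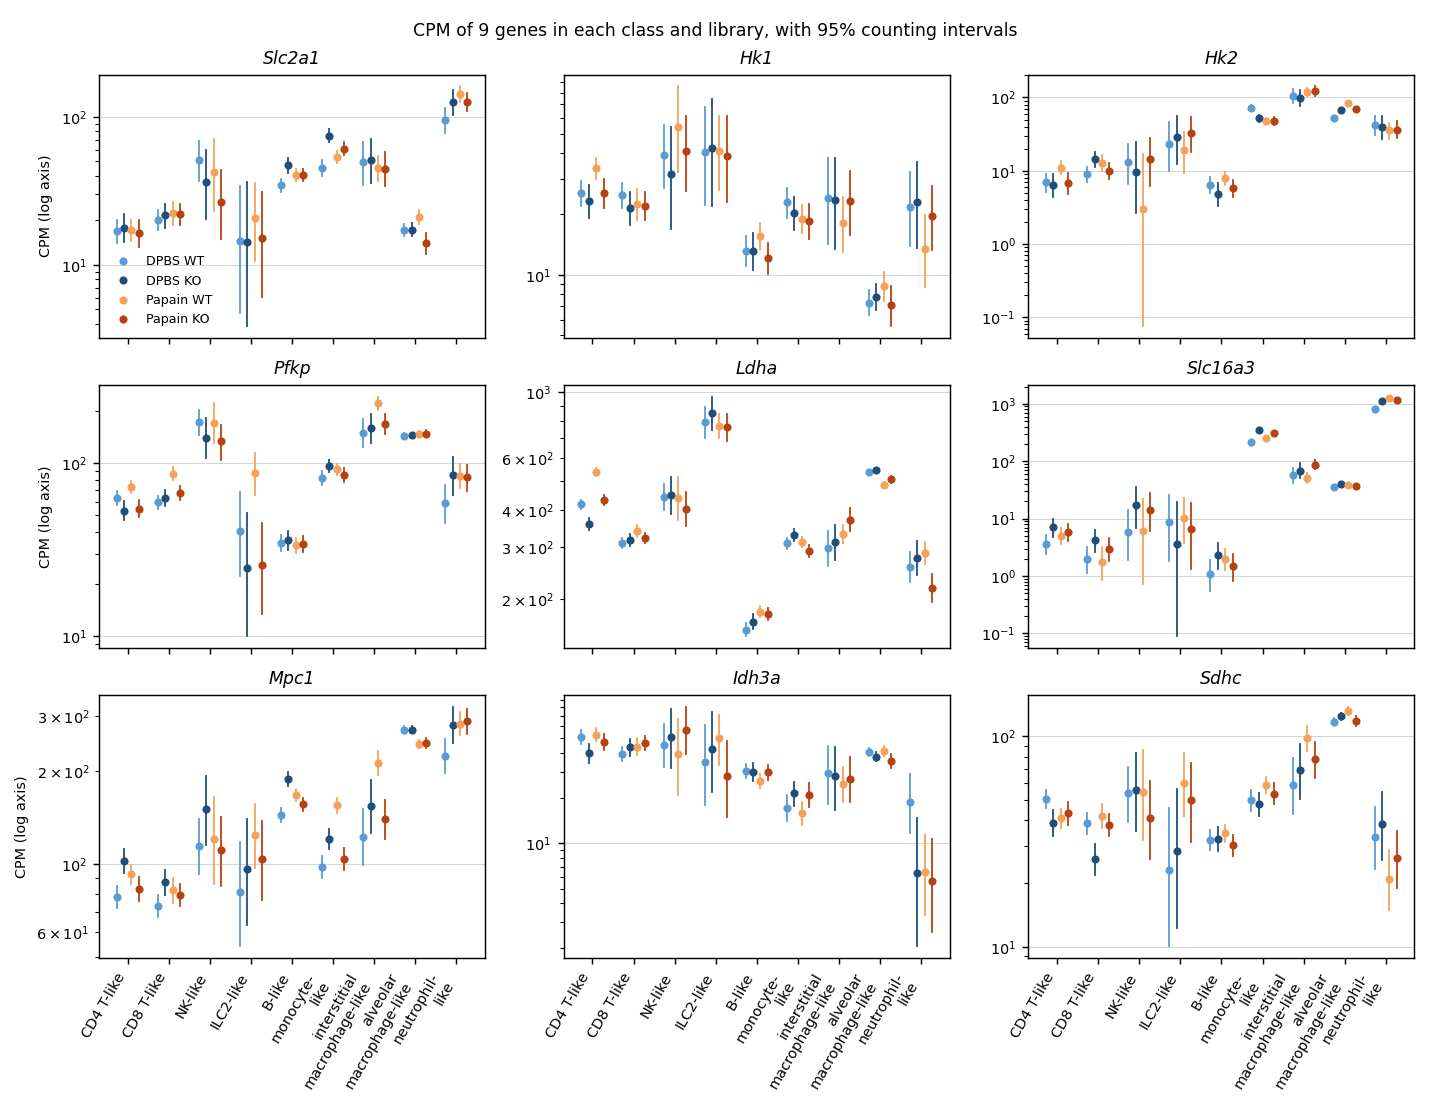
Levels of 9 genes in CPM (log axis) in 9 cell classes, 1 point per library with its 95% counting interval. Slc16a3 spans from 1.08 to 1277 CPM over all points, Hk1 is lowest in alveolar macrophage-like cells, and Ldha is highest in ILC2-like cells.

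Pyruvate entry genes were highest in alveolar macrophage-like cells for 2 of 4 genes. Mpc1 and Mpc2 form the mitochondrial pyruvate carrier. Mpc1 was at 224 to 290 CPM in neutrophil-like and 245 to 272 CPM in alveolar macrophage-like cells, which overlapped, and at 73.0 to 87.2 CPM in CD8 T-like cells. Mpc2 was at 211 to 283 CPM in alveolar macrophage-like cells, above every library of the monocyte-like cells at 159 to 173 CPM. Pdha1 and Pdhb encode subunits of pyruvate dehydrogenase. Pdha1 was at 112 to 125 CPM in monocyte-like cells and 41.8 to 48.8 CPM in B-like cells, whereas Pdhb spanned 1.92-fold over all classes.

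Within the TCA cycle, 7 genes had their highest median in alveolar macrophage-like cells. Ogdh, the 2-oxoglutarate dehydrogenase, was at 161 to 192 CPM there, and the next class, interstitial macrophage-like cells, reached 134 CPM. Cs (citrate synthase, 108 to 116 CPM), Sdha (143 to 158 CPM) and Sdhc (118 to 132 CPM), the last pair encoding succinate dehydrogenase subunits, were also above every library of every other class in alveolar macrophage-like cells. NK-like cells led for the succinate-CoA ligase genes, with Suclg1 at 89.2 to 122 CPM and Suclg2 at 28.5 to 40.5 CPM, and neither overlapped another class. ILC2-like cells led for Idh3b, a subunit of isocitrate dehydrogenase, at 110 to 141 CPM. B-like cells led for Fh1, the fumarate hydratase, at 61.8, 49.9, 46.6 and 49.3 CPM, with the highest NK-like library at 46.1 CPM. Mdh2, the malate dehydrogenase of mitochondria, was the most even of the 33 genes, with a 1.68-fold span. It was at 140 to 147 CPM in B-like cells and 231 to 246 CPM in alveolar macrophage-like cells. The share of all genes with their highest median in alveolar macrophage-like cells was not counted. Of all tested genes, 46.3% were above B-like cells and 53% above neutrophil-like cells in every library of that class.

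Neutrophil-like cells had the lowest median for 9 of the 18 pyruvate and TCA genes and for none of the glycolysis genes. Idh3a was at 18.9, 6.36, 6.47 and 5.65 CPM, against 39.6 to 52.8 CPM in CD4 T-like cells. Idh3b (25.3 to 38.8 CPM) and Suclg1 (23.7 to 39.0 CPM) were below every library of every other class. Fh1 was at 3.81 to 11.9 CPM and Suclg2 at 6.28 to 9.92 CPM, and both overlapped a neighbouring class. The low set was not complete, since neutrophil-like cells led for Mpc1. Sdhd, a further succinate dehydrogenase subunit, was at 72.9 to 82.0 CPM in neutrophil-like and 55.3 to 81.7 CPM in CD4 T-like cells. The share of all genes with their lowest median in neutrophil-like cells was not counted. Of all tested genes, 42% were above neutrophil-like cells in every library of CD4 T-like cells, and 53% in every library of alveolar macrophage-like cells.

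Genes whose 4 libraries of one class all lay above the 4 libraries of the other were counted, beside the share of all tested genes that did so. Between alveolar macrophage-like and neutrophil-like cells, 15 of 18 pyruvate and TCA genes and 6 of 15 glycolysis genes were above in the macrophages (53% of all genes), and 1 and 6 were above in the neutrophils (18.4%). Monocyte-like cells were above B-like cells for 13 glycolysis and 9 pyruvate and TCA genes (32.7%), neutrophil-like cells were above B-like cells for 13 and 6 (24.1%), and alveolar macrophage-like cells for 12 and 14 (46.3%). B-like cells were above neutrophil-like cells for 1 and 8 (45.2%), and CD4 T-like cells for 2 and 8 (42%). Alveolar macrophage-like cells were above CD4 T-like cells for 7 and 13 (46.5%), and monocyte-like cells were above CD4 T-like cells for 13 and 7 (34.4%). Within the lymphoid lineages, CD4 T-like cells were above CD8 T-like cells for 4 and 3 (14.2%), NK-like cells above CD8 T-like cells for 11 and 11 (30.8%) and ILC2-like cells above B-like cells for 10 and 4 (17.8%). CD4 T-like cells were above B-like cells for 8 and 5 (22.4%), CD8 T-like cells for 9 and 5 (19.4%) and NK-like cells for 10 and 9 (25.1%). Several counts were near the share of all genes. Among them were the pyruvate and TCA counts of B-like and of CD4 T-like over neutrophil-like cells and of CD4 T-like over CD8 T-like cells. The glycolysis count of alveolar macrophage-like over CD4 T-like cells was near its share too, and that over neutrophil-like cells was below its share. On UMIs per cell, a scale on which large cells weigh more, alveolar macrophage-like cells were above neutrophil-like cells for 13 of 15 glycolysis genes and neutrophil-like cells above for 2. Over the 33 genes the highest class median was 3.30-fold the lowest at the median gene, against 4.14-fold over 9616 genes with every class above 0.

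Some classes held clusters that differed more than libraries did. In the sub-cluster of dividing cells (97.2% of cells with an Mki67 UMI), the CD4 T-like cells held 7297, 5597, 6537 and 7072 CPM of glycolysis RNA and 2412, 1911, 2258 and 2336 CPM of pyruvate and TCA RNA. A sub-cluster led by Ly6c1 and Cd4 held 2045 to 2088 CPM and 1126 to 1188 CPM, and the sub-cluster led by Ctla4, Pdcd1 and Tnfsf11 held 3585 to 3925 CPM of glycolysis RNA. The dividing sub-cluster was small, with 33, 10, 42 and 20 CD4 T-like cells, but carried 15.7%, 5.14%, 14.7% and 13.1% of the UMIs of the class. Its cells were deep, at 4.19 times the median UMI count of their own sample. Its marker score was 1.35 for T cells and 1.42 for ILC2, and the part of cells of 2 types under 1 barcode was not tested. Dividing CD8 T-like cells held 4747 to 6310 CPM of glycolysis RNA, against 1955 to 2128 CPM in the CD8 T-like sub-cluster led by Cd8a and Ccr9. By contrast, the dividing cluster of alveolar macrophage-like cells (71.5% of cells with an Mki67 UMI) held 4328 to 4766 CPM, inside the 4263 to 5274 CPM of the other 2 clusters of that class.

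**Figure D3:**
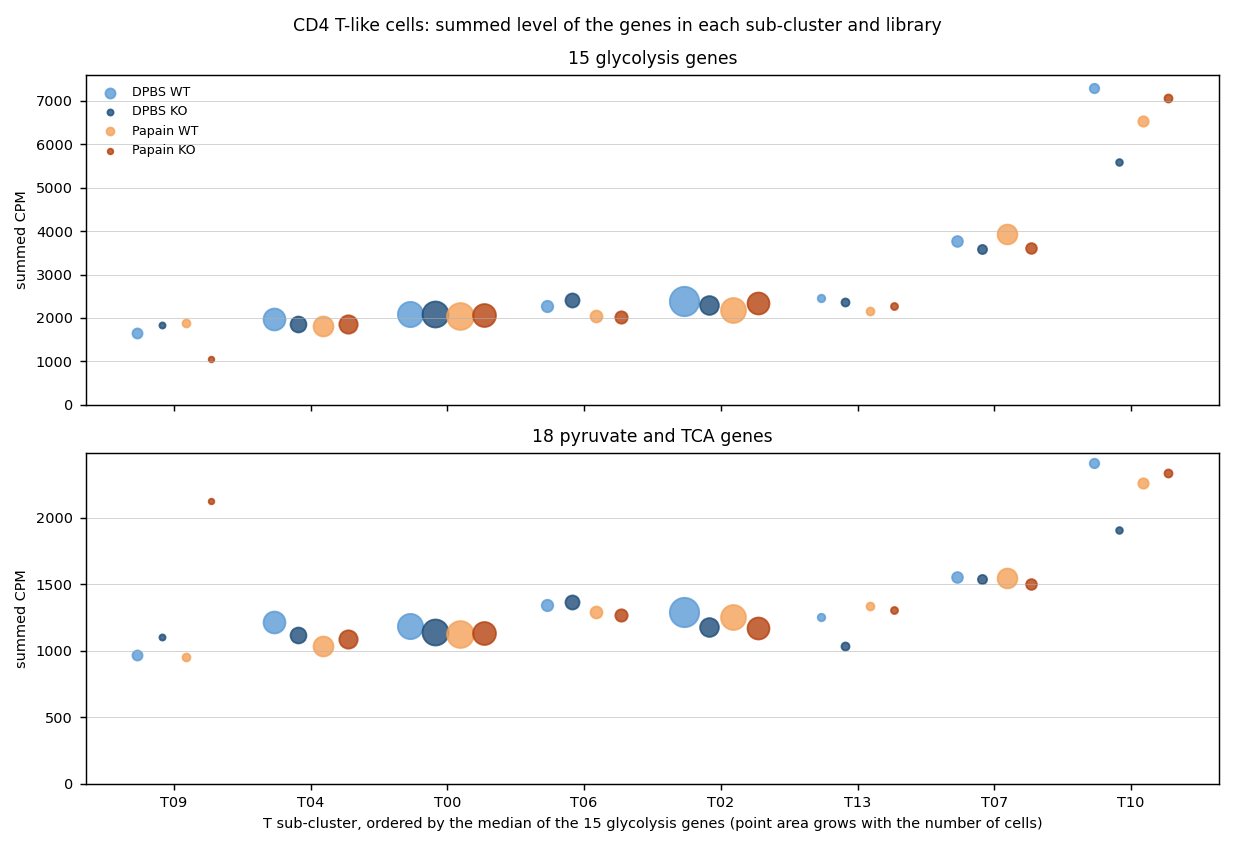
Summed CPM of the glycolysis genes and of the pyruvate and TCA genes in each CD4 T-like sub-cluster, 1 point per library. The area of a point grows with its number of cells from a fixed minimum. The dividing sub-cluster lies at 5597 to 7297 CPM of glycolysis RNA, above every other sub-cluster and lowest in DPBS KO.

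Neutrophil-like cells came in a pair of clusters led by Mmp9 and Retnlg. The larger one held 109 to 347 cells per library and 1207 to 1694 CPM of Slc16a3. The smaller one held 42 to 71 cells and 546 to 778 CPM of Slc16a3, with 1454 to 1533 CPM of pyruvate and TCA RNA against 1168 to 1225 CPM in the larger. Its cells were deeper (1.7 against 0.506 times the median UMI count of their own sample), and the 10 monocyte markers summed to 5094 to 6274 CPM in it against 1362 to 1600 CPM in the larger cluster. The 8 neutrophil markers summed to 24380 to 31830 CPM in the smaller and 93020 to 110500 CPM in the larger cluster, and the part of cells of 2 types under 1 barcode was not tested. Monocyte-like cells with F13a1 and those with Treml4 overlapped in glycolysis sum, at 4301 to 4662 and 4168 to 4481 CPM.

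The KO and WT libraries were then compared within each treatment. A gene was called higher or lower in a class where the log2 ratio of CPM was at least 0.5 in size, its interval excluded 0 and both libraries together held at least 50 UMIs, and the share of all tested genes called is given beside each first count. Of the 264 pairs of a gene and a class tested under DPBS, 7 were called higher in KO (all genes, 3.83%) and 10 lower (4.88%). Under papain, 4 of 274 were called higher (3.23%) and 14 lower (5.58%). Over all classes these shares (2.65% and 3.79% under DPBS, 1.46% and 5.11% under papain) were below those of all genes.

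**Figure D4:**
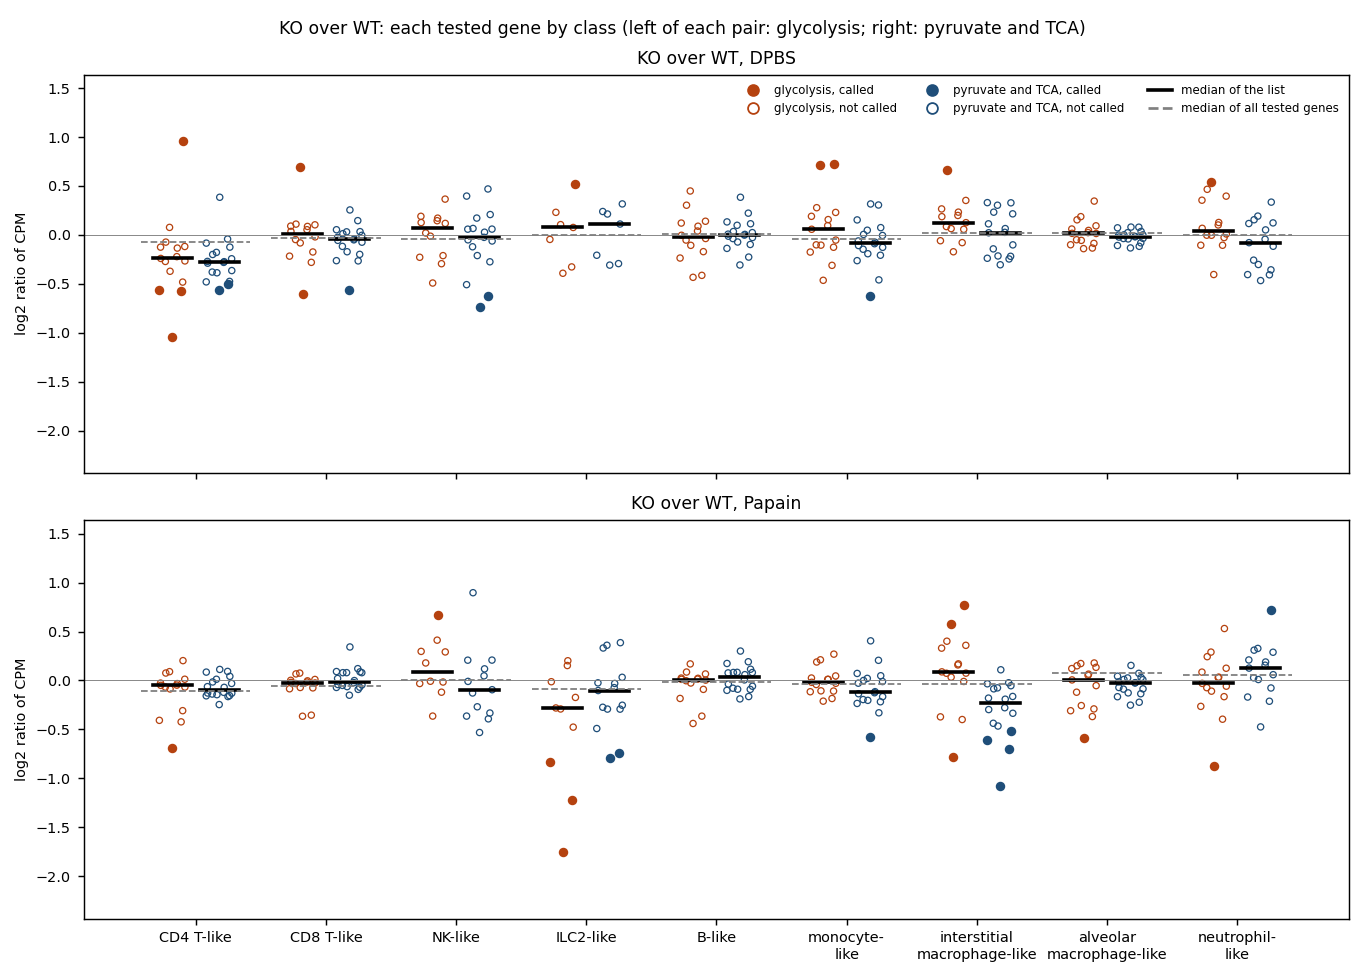
Log2 ratio of KO over WT for each of the 33 genes by class, under DPBS and papain. Filled points are called, black bars are the median of the genes and dashed lines the median of all genes. CD4 T-like cells under DPBS have list medians of -0.24 and -0.28, and B-like cells have list medians between -0.02 and 0.03 under both treatments.

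In CD4 T-like cells under DPBS, 13 of 15 glycolysis genes and 17 of 18 pyruvate and TCA genes had a lower CPM in KO. Their medians were -0.24 and -0.28 on the log2 scale against -0.08 over all genes. Of all tested genes, 39.8% had a higher CPM in KO. Called lower (all genes, 9.5%) were Tpi1, Aldoa and Pgk1 of glycolysis and Sdhd and Fh1 of the TCA cycle, and Slc16a3 was called higher (4.23%). Tpi1 was at 78.9, 38.4, 66.9 and 70.5 CPM in the 4 libraries. The DPBS KO library stood below the other 3, with a KO over WT log2 ratio of -1.04 (-1.29 to -0.80). Aldoa (260, 175, 231 and 226 CPM) and Pgk1 (176, 119, 165 and 160 CPM) had ratios of -0.57 (-0.69 to -0.45) and -0.56 (-0.71 to -0.42). Slc16a3 rested on 34 and 27 UMIs. Of the 33 genes, the study names 9 as reduced in KO, in spleen CD4+ T cells activated in culture with anti-CD3 and anti-CD28 antibodies. The cells here were sorted from lung without that activation. Of the 9 genes, 7 had a lower CPM in KO here, 2 of them (Pgk1 and Fh1) called. Fh1 was at 21.9 CPM in KO and 31.0 CPM in WT, a ratio of -0.50 (-0.85 to -0.17). The other 7 were not called, with Slc2a1 at 17.7 CPM in KO and 16.8 CPM in WT, Gpi1 at 269 and 293 CPM, Ldha at 358 and 418 CPM, Mpc1 at 102 and 78.4 CPM, Pdhb at 65.6 and 79.7 CPM, Suclg1 at 59.6 and 78.0 CPM, and Mdh2 at 186 and 225 CPM. Under papain 6 of the 9 were lower in KO and none was called. There 32.6% of all tested genes had a higher CPM in KO, so most genes were lower in KO as well. The 5 plasma cell markers, led by Jchain, summed to 249, 68.3, 68.2 and 194 CPM in CD4 T-like cells, and their part in these ratios was not tested.

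The dividing cells moved with these ratios. Cells with at least 2 UMIs over the mitotic genes Mki67, Top2a, Birc5, Cdk1, Ccnb1, Ccnb2 and Ccna2 were 5.10%, 2.59%, 6.49% and 4.51% of CD4 T-like cells in the 4 libraries, and the 14 dividing cell genes had a median KO over WT log2 ratio of -1.32 under DPBS. Without the dividing cells the glycolysis median was 0.07 and the pyruvate and TCA median -0.12, and with each cell weighted equally they were 0.02 and -0.17. Tpi1 was then at -0.47 and Aldoa at -0.38 without dividing cells, Pgk1 at -0.13, Sdhd at -0.26 and Fh1 at -0.01. In the sub-clusters led by Ly6c1 and Cd4, which hold the most cells, the glycolysis medians were -0.07, -0.04 and -0.10. In the dividing sub-cluster, with 10 KO and 33 WT cells, the medians were -0.46 for glycolysis and -0.40 for pyruvate and TCA genes. Under papain the CD4 T-like medians were -0.05 and -0.10, against -0.11 over all genes, and Hk2 alone was called lower (all genes, 9.54%), at 6.83 CPM in KO and 11.1 CPM in WT, a log2 ratio of -0.69 (-1.27 to -0.14) on 40 and 92 UMIs. Without the sub-clusters that hold a mixture of T cells that Hk2 ratio was 0.38.

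CD8 T-like cells, in which Ift20 was lowered as well, had medians of 0.01 and -0.05 under DPBS and -0.02 and -0.01 under papain. Under DPBS, Hk2 was called higher (all genes, 4.12%) at 14.4 against 8.93 CPM, and Tpi1 and Sdhc were called lower (4.81%). Tpi1 was at 53.3, 35.0, 53.6 and 53.5 CPM in the 4 libraries, so DPBS KO stood alone, as in CD4 T-like cells, and its ratio was -0.60 (-0.86 to -0.35). No gene of the 33 was called in CD8 T-like cells under papain (all genes, 1.6% higher and 4.4% lower).

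Classes outside the T cell lineage showed calls as well. In monocyte-like cells under DPBS, Slc2a1 was at 74.8 CPM in KO and 45.2 CPM in WT, and Slc16a3 at 356 and 217 CPM, the 2 genes called higher (all genes, 4.43%), and Suclg2 was called lower (6.39%) at 9.22 against 14.2 CPM. The log2 ratios of the first pair were 0.73 (0.50 to 0.95) and 0.71 (0.61 to 0.82). Both clusters of the class showed the direction, with Slc2a1 at 77.3 against 43.1 CPM in F13a1 cells and 70.9 against 49.1 CPM in Treml4 cells. Of 12 hypoxia-inducible genes outside the 33, 11 were tested in the same comparison and 2 were called higher, Ankrd37 at 18.1 against 7.28 CPM and Vegfa at 64.5 against 45.4 CPM, with none called lower. The median of the list was 0.21 against -0.04 over all genes, and its summed CPM had a log2 ratio of 0.19 (0.13 to 0.25), close to the 0.18 (0.15 to 0.20) of alveolar macrophage-like cells, where no gene of the list was called. Of the 11 regulators of HIF and MYC, 10 were tested and 2 were called higher, the prolyl hydroxylase Egln3 at 10.3 against 3.39 CPM and Mxi1 at 136 against 91.3 CPM. Under papain the Slc2a1 (61.1 and 53.6 CPM) and Slc16a3 (309 and 256 CPM) values of KO and WT were not called, nor was any other gene called higher (2.04%), and Mpc1 was called lower (5.04%) at 104 against 155 CPM.

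In the smallest classes the calls rested on few UMIs. In ILC2-like cells under papain, Pfkp (12 UMIs in KO, 51 in WT), Pgam1 (14 and 41) and Pgk1 (41 and 92) were called lower (all genes, 10.7%), with log2 ratios of -1.76 (-2.80 to -0.83), -1.22 (-2.21 to -0.31) and -0.83 (-1.40 to -0.29). Mpc2 and Sdhb were called lower as well, and no gene was called higher (5.5%). Markers of mast cells and basophils summed to 520, 21.3, 222 and 3809 CPM in ILC2-like cells, with 1, 0, 1 and 3 cells holding at least 5 such UMIs, and without those cells the ratios of Pfkp, Pgam1 and Pgk1 were -1.68, -1.39 and -1.01. Under DPBS, Pkm was called higher in ILC2-like cells (4.06%) at 452 against 314 CPM, with none lower (4.12%). In NK-like cells, Idh3b and Ogdh were called lower under DPBS (5.6%, with none higher against 4.58%), on 25 and 34 KO UMIs, and Pgam1 was called higher under papain (3.73%, with none lower against 4.52%).

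Interstitial macrophage-like cells had Pgk1 called higher under DPBS (all genes, 6.36%, and 4.97% lower), at 139 against 87.9 CPM. Under papain they had 17 of 18 pyruvate and TCA genes lower in KO, with a median of -0.23 against -0.03 over all genes. By contrast, 11 of 15 glycolysis genes were higher with a median of 0.09. Of all tested genes, 46.3% were higher. Called lower (all genes, 7.64%) were Pgk1, Mpc1, Suclg2, Fh1 and Sdhd, and called higher (7.01%) were Slc16a3 at 87.4 against 51.2 CPM and Eno1 at 314 against 210 CPM. With cells named one by one from marker UMIs, the class held 91 WT and 49 KO cells under papain. The Mpc1 ratio was then -0.26 and the Sdhd ratio -0.82. No cluster was given this name with doublets kept or without integration, so the ratios could not be compared there. Pgk1 was at 87.9, 139, 206 and 120 CPM in the 4 libraries and Mpc1 at 123, 154, 212 and 140 CPM, so Papain WT was the highest for both. In that library the 10 alveolar macrophage markers summed to 9279 CPM, against 783 to 1113 CPM in the other 3. Chil3 gave 8026 CPM of it, and without Chil3 the sums were 1253 CPM and 568 to 863 CPM. Siglecf was at 6.72 CPM or less in all 4 libraries of the class, against at least 116 CPM in alveolar macrophage-like cells. Of the other markers, Ear2, Mrc1 and Atp6v0d2 were highest in Papain WT, at 753, 324 and 125 CPM. Marco, Pparg, Car4, Krt79 and Cidec were highest in another library. In alveolar macrophage-like cells Chil3 was at 35910 CPM in Papain WT and at 11960 to 13810 CPM in the other libraries. B cell markers summed to 285 to 889 CPM in interstitial macrophage-like cells. Their part in the result was not tested.

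Alveolar macrophage-like and B-like cells, the classes with the most UMIs, had medians close to 0. Alveolar macrophage-like medians were 0.02 and -0.02 under DPBS, with no gene called (all genes, 1.66% higher and 1.83% lower), and 0.01 and -0.02 under papain. There 1 gene was called, Slc2a1 at 14.0 against 21.0 CPM under papain, a log2 ratio of -0.59 (-0.87 to -0.31), where 3.84% of all genes were called higher and 3.32% lower. B-like medians lay between -0.02 and 0.03, and no gene was called in either treatment, where 3.59% of all genes were called higher and 3.11% lower under DPBS, and 1.91% and 4.44% under papain. In neutrophil-like cells, Pfkp was called higher under DPBS (4.43%, with none lower against 3.76%), and under papain Pfkl was called lower (3.5%) and Suclg1 higher (5.87%), each on 31 to 67 UMIs per library.

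Papain was compared with DPBS within each genotype. Each of these comparisons shares its libraries with the KO and WT comparisons, so the values are set side by side and not read as separate evidence. In WT, 16 of 276 pairs of a gene and a class were called higher after papain (all genes, 7.33%) and 4 lower (4.11%). In KO, 6 of 262 were called higher (4.21%) and 5 lower (2.3%).

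**Figure D5:**
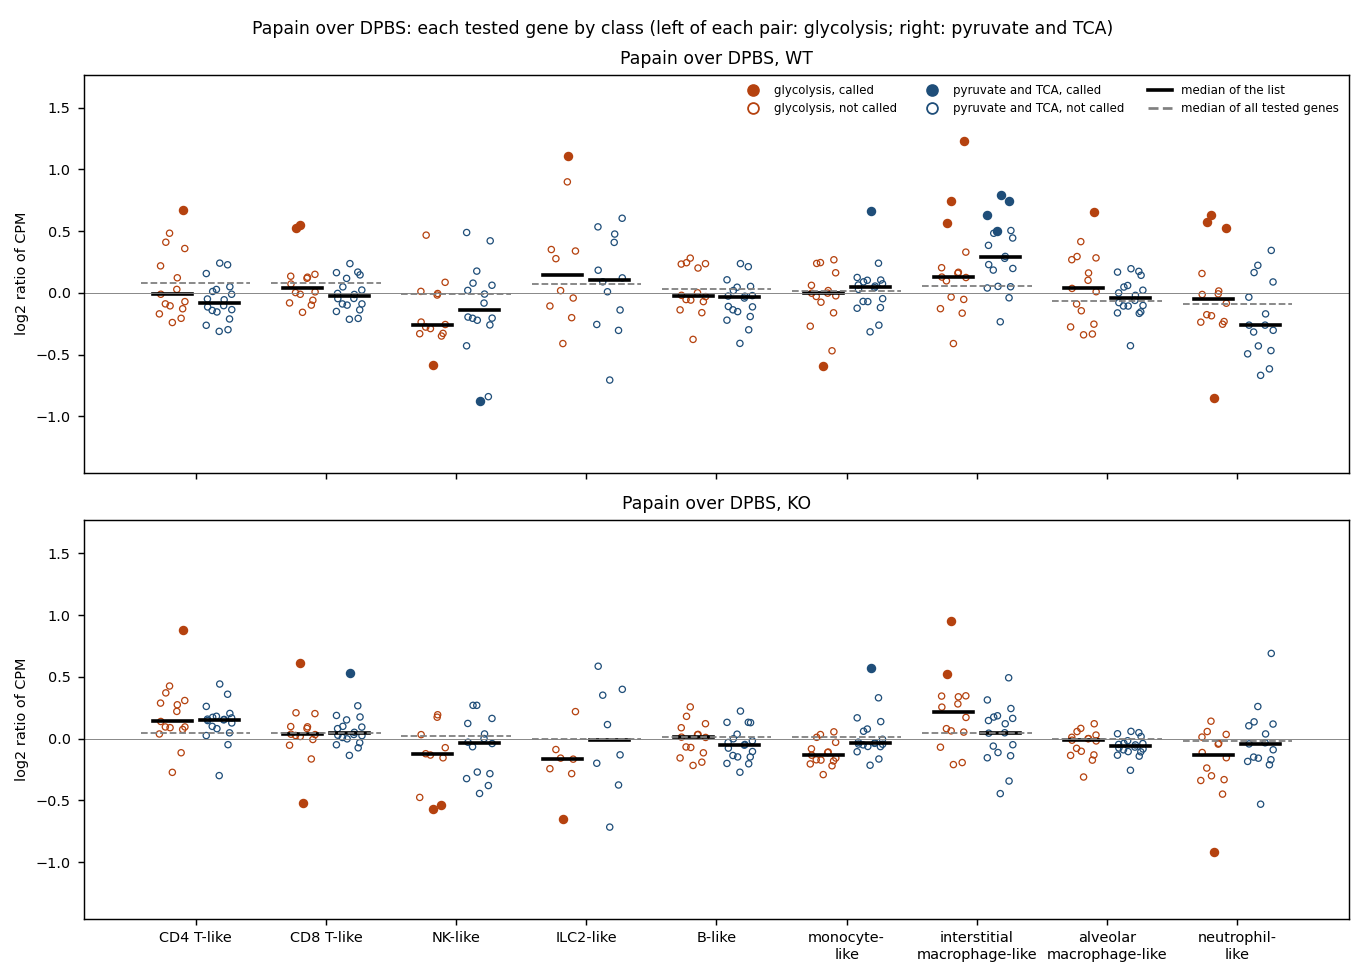
Log2 ratio of papain over DPBS for each of the 33 genes by class, in WT and in KO. Filled points are called, black bars are the median of the genes and dashed lines the median of all genes. Interstitial macrophage-like cells in WT hold 7 called genes, all higher, with Pgk1 at 1.23.

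In neutrophil-like cells, whose count was 178 in DPBS WT and 418 in Papain WT, the transporters were higher after papain in WT. Slc16a3 (824 to 1277 CPM) had a log2 ratio of 0.63 (0.52 to 0.74) and Slc2a1 (95.6 to 142 CPM) one of 0.57 (0.24 to 0.91), and Pfkp was called too (all genes, 7.53% higher and 13.1% lower). In KO, Pfkl was called lower (3% of all genes higher and 3.28% lower), Slc16a3 was at 1137 and 1184 CPM and Slc2a1 at 126 and 127 CPM, so DPBS WT was the low library for both. Tpi1 was called lower in WT, at 76.6 against 138 CPM. The smaller, deeper cluster was 56 of the 178 cells in DPBS WT and 71 of the 418 in Papain WT. Without it Slc16a3 was at 0.37, and Tpi1 at 0.36, a change of sign.

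In WT interstitial macrophage-like cells, 53 under DPBS and 200 under papain, Pgk1 was at 206 against 87.9 CPM, Mpc1 at 212 against 123 CPM, Pgam1 at 256 against 153 CPM and Sdhc at 98.0 against 58.6 CPM. Their log2 ratios were 1.23 (0.86 to 1.62), 0.79 (0.47 to 1.13), 0.74 (0.45 to 1.04) and 0.74 (0.27 to 1.24), and Pfkp, Sdha and Sdhd were called as well (all genes, 9.61% higher and 5.81% lower). Of the pyruvate and TCA genes 16 of 18 were higher, with a median of 0.29 against 0.05 over all genes, of which 55.8% were higher. In KO the medians were 0.21 for glycolysis and 0.05 for pyruvate and TCA genes, and Pfkl and Eno1 were called higher (7.63%, and 5.18% lower). When each cell was weighted equally Sdhc in WT was at 0.07, and with cells named one by one from marker UMIs Mpc1 was at 0.29 and Pfkp at 0.14. Eno1 in KO was at 0.02 with cells named one by one and at 0.84 with each cell weighted equally. The Chil3 level of the Papain WT library, given above, moved with these values. The 7 interstitial macrophage markers summed to 6184 CPM in DPBS WT and 3659 CPM in Papain WT, the 8 neutrophil markers to 54.6 and 175 CPM, and 12 immediate early genes had a log2 ratio of -0.72 (-0.76 to -0.69) in sum. The part of these shifts in the values was not tested.

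Hk2 was called higher after papain in WT alveolar macrophage-like cells (all genes, 5.49%), at 83.1 against 52.6 CPM, a log2 ratio of 0.66 (0.55 to 0.77). Clustering without integration left 653 of these cells in Papain WT, against 1015 in the main naming. The Hk2 ratio was then 0.48, below the size of 0.5 needed for a call. No gene was called lower in WT (5.2%), and none was called in KO (3.84% higher and 2.28% lower), where Hk2 was at 69.6 and 66.9 CPM. The WT monocyte-like cells went the other way, with Hk2 called lower (3.08%) at 47.8 against 71.8 CPM and Mpc1 called higher (5.14%) at 155 against 97.6 CPM. Monocyte-like Mpc1 in KO was at 104 and 120 CPM, so Papain WT was the high library, and Suclg2 was the gene called in KO (2.99% higher and 1.71% lower).

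The lymphoid classes held 6 of the 20 calls after papain in WT, on 148 of the 276 pairs tested. In KO they held 7 of the 11 calls, on 136 of 262 pairs. The share of all genes called was not counted by lineage. WT CD4 T-like medians were -0.01 for glycolysis and -0.08 for pyruvate and TCA genes, against 0.08 over all genes, and Hk2 was the gene called (all genes, 10.2% higher and 2.02% lower), at 11.1 against 6.95 CPM. Without the mixed sub-clusters that ratio was -0.05. In KO CD4 T-like cells 13 of 15 glycolysis and 16 of 18 pyruvate and TCA genes were higher after papain, with medians of 0.14 and 0.15. Of all tested genes 57.5% were higher, with a median of 0.05. Tpi1 was called higher (6.04%, and 1.93% lower) at 70.5 against 38.4 CPM. The 14 dividing cell genes had a median of 1.09 in that comparison, and without dividing cells the Tpi1 ratio went from 0.88 to 0.25. In WT CD8 T-like cells Pfkp (87.2 against 59.5 CPM) and Hk2 (12.8 against 8.93 CPM) were called higher (7.56%, and 1.58% lower). In KO CD8 T-like cells Tpi1 (53.5 against 35.0 CPM) and Sdhc (37.9 against 26.2 CPM) were called higher (4.28%) and Hk2 (10.0 against 14.4 CPM) lower (1.7%). DPBS KO was the library apart for Tpi1 and Sdhc. Hk2 was spread over the libraries at 8.93, 14.4, 12.8 and 10.0 CPM. NK-like cells had Tpi1 and Ogdh called lower in WT (2.91%, and 5.46% higher) and Tpi1 and Gapdh in KO (3.05%, and 5.03% higher). In WT ILC2-like cells Pfkp was called higher (9.02%, and 4.12% lower), on 51 and 14 UMIs, and in KO Pkm was called lower (3.4%, and 4.58% higher). No gene was called in B-like cells in either genotype (all genes, 7.07% higher and 2.8% lower in WT, 2.49% and 1.32% in KO).

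Genes of the same pathways outside the 33 added to the lineage differences. Slc2a3, the transporter GLUT3, had a median of 289 CPM in neutrophil-like cells and at most 30.9 CPM in other classes. Eno3, the muscle-type enolase, was at 410 CPM in monocyte-like and 233 CPM in neutrophil-like cells, and at most 10.6 CPM elsewhere. Ldhb, the other main lactate dehydrogenase subunit, was at 34.3 CPM in CD4 T-like cells and 0.172 CPM in B-like cells. In alveolar macrophage-like cells Idh1, the cytosolic isocitrate dehydrogenase, was at 192 CPM and the pyruvate dehydrogenase kinase Pdk4 at 30.4 CPM, where the medians of all other classes were at most 0.881 CPM for Pdk4. Pdk1, a kinase of the same family, was highest in CD4 T-like cells at 96.6 CPM. Pgam2 and Pklr, forms typical of muscle and of red cells, had medians of 0 in every class.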

How the data were processed

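Lung immune cells of 4 groups, 1 library each, were profiled by 10x 3′ single-cell RNA sequencing. The authors deposited unnormalized UMI counts per gene and barcode, made with Cell Ranger on mm10 according to the submitters' processing notes (software version 3.1.0 in the file headers). Groups came from the labels. The 33 genes, the pathway lists and the markers were chosen with earlier results of these data known.

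Cells with over 200 genes and under 15% mitochondrial UMIs were kept, and doublets scored highest by Scrublet (scanpy 1.11.5) were removed at 0.8% per 1000 barcodes, since the caller's own cut marked 0.0341% to 5.00% of barcodes. Seurat 5.3.0 in R 4.3.3 served to align the libraries by canonical correlation and to cluster the cells, leaving the pathway genes, Ift20 and receptor segments out of the variable genes. Clusters were named by the mean log2 ratio of marker shares, a scoring rule set after the clusters were seen, and T cells were re-clustered. Clusters that did not pass the rule stayed unnamed (158 to 476 cells per library), among them sub-clusters with regulatory T cell genes, so the CD4 T-like class leaves out part of these cells.

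UMI counts were summed per class and library and expressed as CPM with exact Poisson intervals (scipy 1.17.1). Ratios had exact binomial intervals and needed at least 50 UMIs. A call required a log2 ratio of at least 0.5 in size and an interval without 0. Genes named in a comparison were the called genes and those the study names. The plan was to name up to 4 called genes in each direction, by the size of the ratio. Further called genes were named as well in ILC2-like and interstitial macrophage-like cells. The 95% intervals cover counting error only, and a count of 0 in all cells of a library allows up to 0.0396% to 0.0552% of its cells to hold a UMI, which does not limit the share that express the gene. Ratios and intervals were tested on simulated data. Alternatives used TMM factors (edgeR 4.0.16), other filters, other cell naming and left-out libraries or cells.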

Additional observations from a re-analysis of the deposited data

Results flagged for a closer look

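Hk2 in CD8 T-like cells was called in opposite directions by papain in the 2 genotypes, with a papain over DPBS log2 ratio of 0.52 in WT (8.93 to 12.8 CPM) and -0.52 in KO (14.4 to 10.0 CPM). The 4 libraries held 70 to 76 UMIs of Hk2 each, and both intervals came within 0.033 of 0.

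Pgk1 in interstitial macrophage-like cells was called in opposite directions by genotype in the 2 treatments, with a KO over WT log2 ratio of 0.66 under DPBS (139 against 87.9 CPM) and -0.78 under papain (120 against 206 CPM). With 1 library per group, neither difference between ratios was tested.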

How the results depend on the processing

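No paired analysis was possible because each group holds 1 library. Of the values that answer a comparison, 961 stayed within the counting error or within 1.5 times under an alternative, 41 moved and 2 changed sign. The 2 were the CD4 T-like glycolysis median of KO over WT under DPBS, which was 0.021 with each cell weighted equally and 0.068 without dividing cells. Without the genes that have near-identical copies, glycolysis medians were -0.053 (monocyte-like, KO over WT, DPBS), -0.80 (ILC2-like) and -0.26 (alveolar macrophage-like, both KO over WT, papain), 0.22 (CD4 T-like), 0.16 (alveolar macrophage-like) and 0.27 (neutrophil-like, papain over DPBS in WT), and 0.22 (ILC2-like) and -0.13 (alveolar macrophage-like, papain over DPBS in KO), on as few as 1 gene. For papain over DPBS in WT the glycolysis median was 0.12 in B-like cells named one by one, -0.051 in alveolar macrophage-like cells without integration and 0.27 without the deeper neutrophil-like cluster, an alternative chosen after seeing the data, as were those without mixed T sub-clusters and without mast cell markers. Counts of genes above in every library moved on UMIs per cell to 14 glycolysis (alveolar macrophage over CD4 T), 13 and 2 (alveolar macrophage over neutrophil and the reverse), 0 (B over neutrophil, CD4 T over CD8 T), and for pyruvate and TCA genes to 3 (neutrophil over B), 8 (CD4 T over B), 13 (CD8 T over B), 5 (B over neutrophil) and 0 (CD4 T over CD8 T, neutrophil over alveolar macrophage). With TMM factors they were 1 (NK over B), 2 (ILC2 over B) and 3 (neutrophil over alveolar macrophage) for pyruvate and TCA genes and 0 (B over neutrophil) for glycolysis. CD8 T over B was 3 without dividing cells or with cells weighted equally, CD4 T over neutrophil glycolysis 1 in 4 settings (doublets kept, 10% mitochondrial limit, without dividing cells, cells weighted equally), CD4 T over CD8 T pyruvate and TCA 5 with cells named one by one, and neutrophil over alveolar macrophage 0 with that naming, doublets kept or dividing cells left out. Leaving out each library gave ranges of 4 to 10 (glycolysis, CD4 T over CD8 T, 10 without DPBS KO), 3 to 8 (pyruvate and TCA, same pair, 8 without DPBS KO and 5 without Papain WT), 4 to 7 (ILC2 over B, 7 without Papain KO) and 1 to 2 (neutrophil over alveolar macrophage, 2 without DPBS WT). Of single genes, 482 values stayed, 32 moved and 5 changed sign. These were Fh1 (0.028, KO over WT, DPBS), Hk2 (0.38, KO over WT, papain) and Hk2 (-0.055, papain over DPBS, WT) in CD4 T-like cells without mixed sub-clusters, Tpi1 in NK-like cells named one by one (0.10) and Tpi1 in neutrophil-like cells without the deeper cluster (0.36), both papain over DPBS in WT. Apart from settings that by construction use fewer genes or cells, the cause was not tested. Interstitial macrophage-like cells have no values with doublets kept or without integration, because no cluster was given that name there. Depth limits ILC2-like and NK-like cells most, where 14 to 25 and 23 to 29 of the 33 genes reached 50 UMIs in a comparison, against 29 to 30 in neutrophil-like, 29 to 33 in interstitial macrophage-like and at least 32 in the other classes.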

Other observations

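Hif1a, which encodes the oxygen-regulated subunit of HIF, was called higher after papain in WT in 6 of 9 classes, where 7.33% of all genes tested over the classes were called higher. In CD4 T-like cells it was at 211 against 110 CPM, a log2 ratio of 0.94 (0.82 to 1.06), in monocyte-like cells at 111 against 68.9 CPM, in B-like cells at 91.7 against 59.0 CPM and in neutrophil-like cells at 189 against 117 CPM. In KO it was called in interstitial macrophage-like cells, at 143 against 90.8 CPM (4.21% of all genes called higher over the classes), and was not called in CD4 T-like cells at 146.5 against 152.5 CPM or monocyte-like cells at 84.7 against 91.3 CPM. The difference between the genotypes was not tested. In CD4 T-like cells Bhlhe40, a transcription factor of activated T cells, was at 119 against 28.7 CPM and Egln3 at 11.9 against 2.81 CPM in the same WT comparison, and both were called lower in KO than in WT under papain, at 43.2 against 119 CPM and 4.44 against 11.9 CPM. These comparisons share the Papain WT library.

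Vegfa, the angiogenic growth factor, was higher after papain in WT alveolar macrophage-like cells at 50.4 against 17.7 CPM and in interstitial macrophage-like cells at 189 against 66.6 CPM, with log2 ratios of 1.51 (1.35 to 1.67) and 1.51 (1.08 to 1.96). In Papain KO it was at 22.5 and 69.5 CPM. Pdk4 in alveolar macrophage-like cells was called lower after papain in both genotypes, at 21.9 against 38.8 CPM in WT and 21.8 against 48.15 CPM in KO. Eno3 was called lower after papain in WT monocyte-like cells (323.5 against 502 CPM) and in neutrophil-like cells of both genotypes (147 against 345.5 CPM in WT, 183 against 283 CPM in KO). The neutrophil-like cluster with monocyte markers was 56 of 178 cells in DPBS WT and 71 of 418 in Papain WT, and 42 of 151 in DPBS KO and 62 of 294 in Papain KO. The 10 monocyte markers of the class summed to 4232 CPM in DPBS WT and 3270 CPM in Papain WT, and to 3792 CPM in DPBS KO and 3060 CPM in Papain KO, and their part in the Eno3 values was not tested.

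Sdhaf1, an assembly factor of succinate dehydrogenase, was called higher in KO under DPBS in CD4 T-like (105 against 66.4 CPM), B-like (112 against 72.2 CPM) and NK-like cells (68.0 against 31.0 CPM), classes within and outside the T cell lineage. Under papain it was at 92.0 CPM in KO and 93.5 CPM in WT in CD4 T-like cells, 89.4 and 79.0 CPM in B-like cells, and 30.3 and 51.3 CPM in NK-like cells (17 UMIs each), so DPBS WT was the lowest library in CD4 T-like and B-like cells. The phosphoglucomutase Pgm2 was called lower in the same comparison in CD4 T-like (6.81 against 11.5 CPM), CD8 T-like (4.93 against 10.6 CPM) and B-like cells (4.56 against 8.92 CPM). Under papain the KO and WT values were 7.17 and 10.7 CPM in CD4 T-like cells, again called lower, 8.32 and 9.15 CPM in CD8 T-like cells and 5.90 and 7.79 CPM in B-like cells. Sdhaf1 and Pgm2 were chosen from the other pathway genes after their values were seen.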
